A study of Homo sapiens with 6 samples.

Results

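The genes described here encode lysosomal hydrolases and lysosomal membrane proteins, with a few proteins that activate, deliver or regulate them. The 39 members were taken by gene symbol from tables of 62016 genes each, and cathepsins were left out. A member counted as measured where its larger group value reached 1 FPKM (fragments per kilobase of transcript, scaled to the mapped fragments of a library). That held for 38 members in the shRNA63 table and for 37 in the shRNA95 table. ACP5, an acid phosphatase, was listed at 0 in every group of both tables. TFEB was measured with shRNA63 only: its group values were 0.954 FPKM in the control and 1.20 with shRNA63, and 0.925 and 0.393 FPKM in the shRNA95 table. LGMN, the next above the limit in both tables, had 1.45 and 1.50 FPKM with control and shRNA63, and 1.40 and 1.15 FPKM in the shRNA95 table.

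RNA was sequenced from Kasumi-1 cells, a human acute myeloblastic leukemia line with the AML1-ETO fusion, in which most of RUNX1T1 is joined to the DNA-binding part of RUNX1. There were 3 groups of 2 libraries, each infected with a pLKO virus 4 days earlier: control shRNA, or one of the hairpins against JMJD1C (a member of the KDM3 proteins), named shRNA63 and shRNA95. The authors also deposited a table for a knockdown of AML1-ETO, with 1 library a side that came from another series. The 6 libraries of the 3 groups came from this cell line alone. No label tells whether the 2 libraries of a group were separate cultures, so the deposited p-values may measure technical spread alone.

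Lysosomes are acidic compartments in which hydrolases break down glycans, lipids and proteins that arrive from endocytosis, phagocytosis and autophagy. Most soluble hydrolases are tagged with mannose 6-phosphate in the Golgi and carried to the lysosome by receptors, while heavily glycosylated membrane proteins line and protect its wall. The transcription factor TFEB and its relatives bind an E-box found near the start of many lysosomal genes. Inherited loss of single hydrolases causes storage diseases, and in myeloid cells lysosomes also serve the killing and digestion of microbes.

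JMJD1C mRNA stood at 13.7 FPKM with shRNA63 against 30.4 FPKM in the control, a log2 fold change of -1.15 (error 0.30, q = 0.00214) in the authors' deposited table. The libraries labelled shRNA95 had 25.1 FPKM beside 29.4 FPKM in their control, which is -0.23 on the log2 scale (error 0.30, 95% interval -0.81 to 0.35, q = 0.938) in the authors' deposited table, so directions given for shRNA95 rest on the label of those libraries. The tables hold 1 value per group, so values per library and any overlap between libraries cannot be shown, and the error of a log2 fold change is its size over the authors' test statistic. Of the 6 myeloblast markers 5 were measured (KIT at 245.2 FPKM in the control, RUNX1T1 at 102.5), while MPO was listed at 0 under the authors' status for loci with too much data. Erythroid markers summed to at most 0.169 FPKM in any group of the 2 JMJD1C tables. Lymphoid markers summed to 9.57 FPKM in the control and 3.02 with shRNA63, and to 9.28 and 2.45 in the shRNA95 table, of which CD3D made up most.

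In control cells the lysosomal genes were more abundant than the typical measured gene, with a median of 25.4 FPKM over the measured members against 14.0 FPKM over all 14475 measured genes in the shRNA63 table. PPT1, which removes fatty acids from proteins, led at 227.5 FPKM. PSAP, whose product is cleaved into the saposins that help sphingolipid enzymes, followed at 221.2 FPKM, and the membrane glycoprotein gene LAMP1 at 191.9 FPKM. GLB1, the acid beta-galactosidase, had 183.0 FPKM and LAPTM4B, a membrane protein, 182.8 FPKM, and these levels have no error of their own. At the other end, LAPTM5 (4.36 FPKM), FUCA1 (3.36), IDUA (2.94), SMPD1 (2.66), LGMN and TFEB were the scarcest of the measured members. The control libraries entered both JMJD1C tables, and each table was scaled separately, so levels were compared within a table only.

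**Figure D1:**
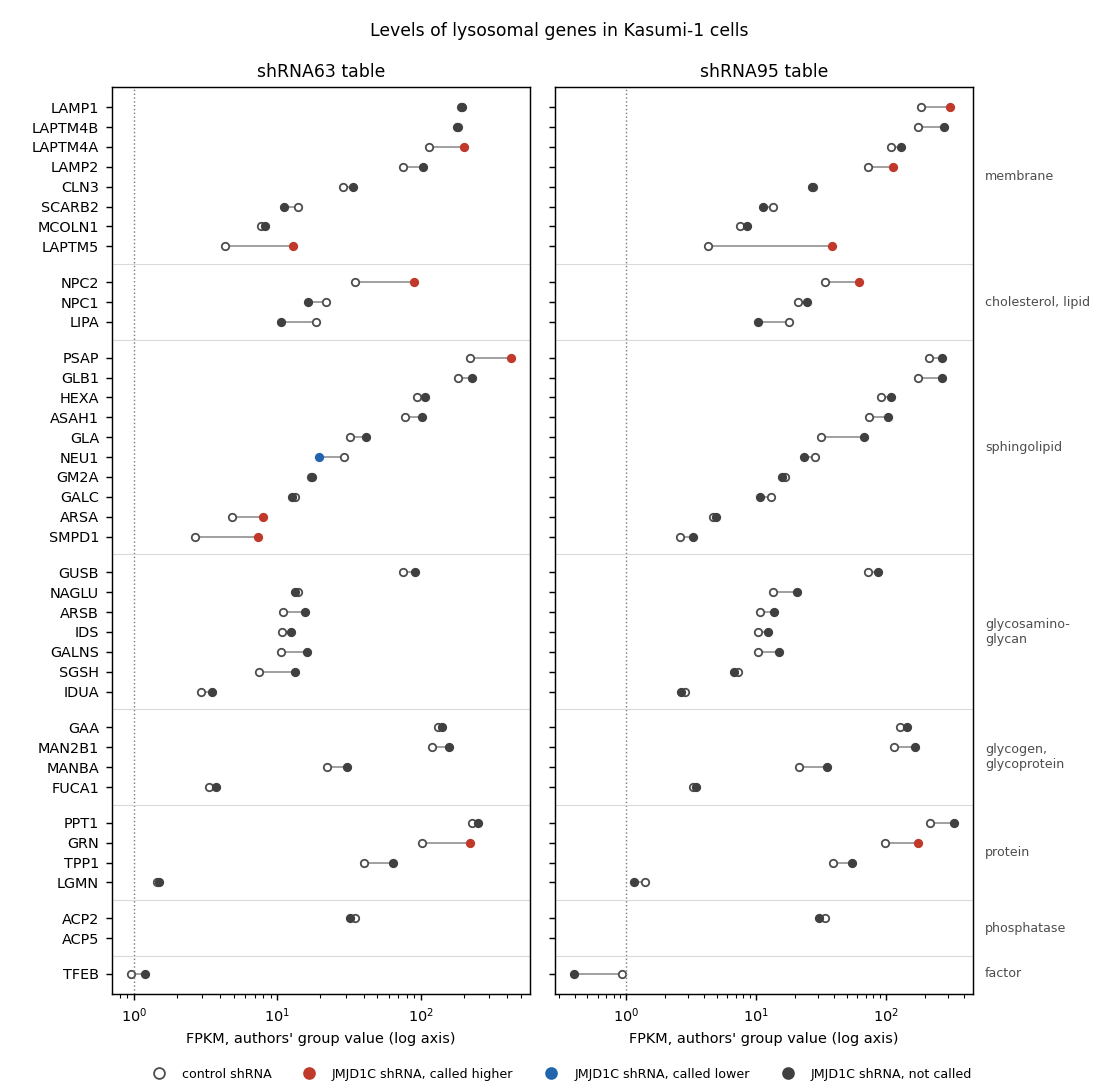
Levels of the 39 lysosomal genes by role, with control (open circles) and JMJD1C shRNA (filled circles, red where called higher and blue where called lower) joined by a line, as the authors' group FPKM on a log axis for the shRNA63 and the shRNA95 tables. The dotted line marks 1 FPKM, ACP5 is listed at 0 and has no point, and the longest line of a measured member is that of LAPTM5 in the shRNA95 table, from 4.23 to 38.2 FPKM.

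A gene is called changed here where the authors' q-value is under 0.05. With shRNA63 the authors' deposited table called 8 of the 38 measured members, 7 higher and 1 lower. Among all 14475 measured genes 5.74% were called, 2.49% were called higher and 3.25% lower. The 7 were LAPTM5, NPC2, PSAP, SMPD1, GRN, ARSA and LAPTM4A, and the 1 that fell was NEU1. With shRNA95, in which the label alone gives the direction, 5 of 37 members were called higher and 0 lower in the authors' deposited table, where 5.04% of 14391 measured genes were called, 3.06% higher and 1.98% lower. They were LAPTM5, GRN, NPC2, LAMP1 and LAMP2. At an unadjusted p under 0.05, Cuffdiff gave 12 members higher and 2 lower with shRNA63, against 6.99% and 7.39% of all measured genes. It gave 10 higher and 1 lower with shRNA95, against 7.98% and 5.29%. The log2 fold change was positive for 30 of 38 members with shRNA63 (51.1% of all measured genes) and for 27 of 37 with shRNA95 (54%) in the authors' deposited tables. As a description, the median of log2((FPKM + 1)/(control FPKM + 1)) over the members was 0.22 with shRNA63 and 0.26 with shRNA95, beside 0.009 and 0.032 over all measured genes. The FPKM of the members summed to 2187 in the control and 2892 with shRNA63, and to 2120 and 3009 in the shRNA95 table. Both comparisons share their control libraries, so they are not independent of each other.

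Markers of other myeloid cells and stages also changed, not all in one direction. Of 8 monocyte and macrophage markers 5 were measured, and 4 of them (LYZ, MNDA, CTSS and TLR2) were called higher with shRNA63 and 5 with shRNA95 in the authors' deposited tables. The list summed to 20.4 FPKM in the control and 110.4 with shRNA63, and to 19.7 and 131.2 FPKM in the shRNA95 table, while CD14, CSF1R and CD163 stayed under 1 FPKM in all groups. The 7 neutrophil granule markers summed to 5936 and 15103 FPKM in the shRNA63 table, with 4 called higher, and to 5757 and 8697 FPKM in the shRNA95 table, with 4 called higher. Of these, ELANE, AZU1, PRTN3 and CTSG were called with shRNA63, and AZU1, CTSG, BPI and S100A9 with shRNA95. Among myeloblast markers KIT was called lower and CD33 and PTPRC higher with shRNA63 in the authors' deposited table. With shRNA95 CD34, a progenitor marker, and PTPRC were called higher. CD34 had 150.7 FPKM in the control and 103.2 with shRNA63 (q = 0.0743), and 146.1 and 249.0 FPKM in the shRNA95 table (q = 0.00216), in the authors' deposited tables. The part of these markers in the lysosomal changes was not tested, and in bulk RNA more cells of a type and more RNA per cell cannot be told apart.

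**Figure D2:**
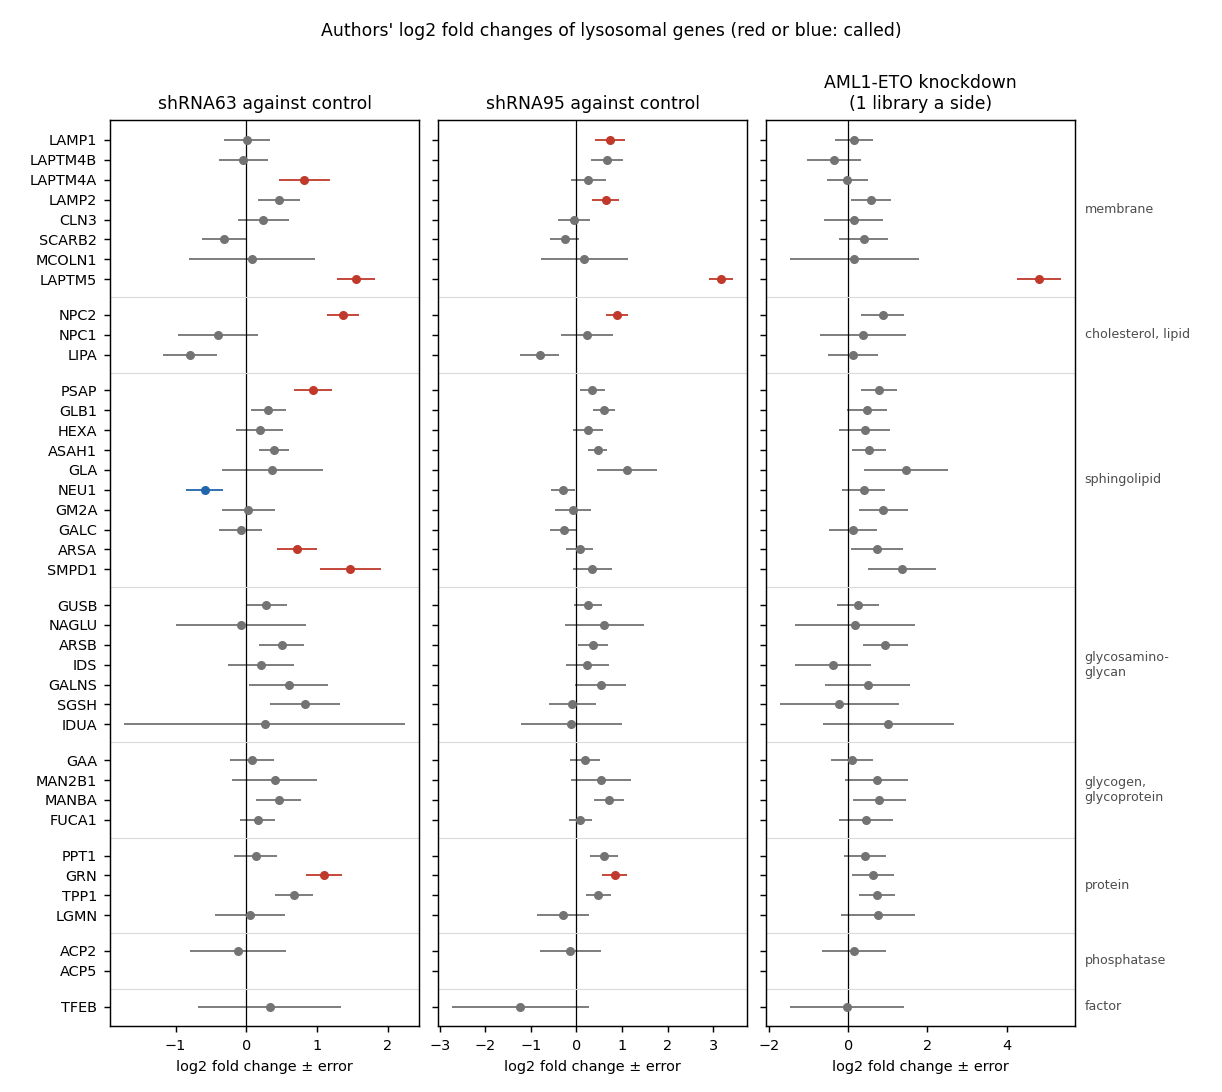
The authors' log2 fold change of each lysosomal gene (points) with its error (lines) for shRNA63, shRNA95 and the AML1-ETO knockdown, grouped by role; red points were called higher and the blue point lower. LAPTM5 lies farthest to the right in each panel, at 1.55, 3.17 and 4.82; ACP5 is not drawn.

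The FPKM of the 8 membrane protein genes summed to 618.4 in the control and 742.2 with shRNA63, and to 599.5 and 921.3 in the shRNA95 table. Among them LAPTM5 was called in all 3 tables. LAPTM5 (ENSG00000162511, hg19 locus chr1:31205316-31230667) encodes a lysosomal membrane protein of blood cells. Its group values were 4.36 FPKM in the control and 12.8 FPKM with shRNA63, and 4.23 and 38.2 FPKM in the shRNA95 table. The log2 fold changes were 1.55 (error 0.27, q = 0.00214) with shRNA63 and 3.17 (error 0.27, q = 0.00216) with shRNA95 in the authors' deposited tables. These correspond to 292.5% and 903.0% of control. The locus holds 1 other gene in the tables, MIR4420, and it was listed at 0 FPKM in the shRNA63 table.

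LAPTM4A and LAPTM4B, relatives of LAPTM5 found in most tissues, were far more abundant in control cells and had smaller log2 fold changes. LAPTM4A (hg19 locus chr2:20232411-20251789) rose with shRNA63, from 113.8 FPKM in the control to 201.0, and its log2 fold change was 0.82 (error 0.36, q = 0.0255) in the authors' deposited table. In the shRNA95 table it stood at 110.3 and 132.2 FPKM, 0.26 on the log2 scale (error 0.38, q = 0.898) in the authors' deposited table. LAPTM4B had 182.8 and 178.0 FPKM with control and shRNA63, and 177.2 and 279.6 FPKM in the shRNA95 table, without a call (q = 0.999 and 0.118 in the authors' deposited tables). So the member of the family that was scarcest in control cells had the highest log2 fold change of the 3 in each JMJD1C table.

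LAMP1 and LAMP2, the major glycoproteins of the lysosomal wall, were called with shRNA95 only, which by itself does not show that the hairpins differ. LAMP1 (hg19 locus chr13:113951556-113977987) stood at 186.0 and 311.1 FPKM in the shRNA95 table, a log2 fold change of 0.74 (error 0.33, q = 0.0312), and at 191.9 and 193.8 FPKM in the shRNA63 table, 0.01 (error 0.32, q = 0.999), in the authors' deposited tables. LAMP2 (hg19 locus chrX:119561682-119603220) was at 73.0 and 113.7 FPKM with shRNA95, a log2 fold change of 0.64 (error 0.29, q = 0.0412), and at 75.4 and 103.5 FPKM with shRNA63, 0.46 (error 0.30, q = 0.239), in the authors' deposited tables. Neither JMJD1C table called SCARB2, a receptor that carries glucocerebrosidase to the lysosome, the calcium channel gene MCOLN1 or the membrane protein gene CLN3. Their log2 fold changes lay between -0.32 and 0.24 in the authors' deposited tables. Where p-values were computed from the authors' statistic with a normal distribution instead of taken as deposited, 5 calls were lost: LAPTM4A (adjusted p = 0.322), LAMP1 (0.350), LAMP2 (0.393), and NEU1 (0.328) and ARSA (0.189) of the sphingolipid group.

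Of the genes for cholesterol egress and neutral lipid, NPC2 was called with each hairpin. NPC2 (ENSG00000119655, hg19 locus chr14:74942895-74963809) encodes a soluble protein that hands cholesterol to the membrane protein NPC1. It stood at 35.0 FPKM in the control and 90.5 with shRNA63, a log2 fold change of 1.37 (error 0.23, q = 0.00214) in the authors' deposited table. With shRNA95 it was at 62.6 against 33.9 FPKM, 0.89 on the log2 scale (error 0.24, q = 0.0173) in the authors' deposited table. Its partner NPC1 was not called, at 21.8 and 16.5 FPKM in the shRNA63 table and 21.1 and 24.8 FPKM in the shRNA95 table. LIPA, the acid lipase that frees cholesterol from its esters, had lower values in both, 18.5 and 10.6 FPKM with shRNA63 and 10.3 FPKM or 57.2% of control with shRNA95, and missed the threshold (q = 0.0573 and 0.164 in the authors' deposited tables). LIPA lies on a locus with 9 genes in the tables and NPC2 on one with 4, and the reads of either may be shared with neighbours.

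Of the 10 sphingolipid and ganglioside genes, 3 were called higher and 1 lower with shRNA63, and their FPKM summed to 675.9 in the control and 966.4 with the hairpin. PSAP (ENSG00000197746, hg19 locus chr10:73576055-73611126) rose from 221.2 FPKM in the control to 424.0, and its log2 fold change was 0.94 (error 0.27, q = 0.00214) in the authors' deposited table. Its locus holds 2 genes. SMPD1, the acid sphingomyelinase (ENSG00000166311, hg19 locus chr11:6411655-6416228), rose from 2.66 to 7.36 FPKM, 1.47 on the log2 scale (error 0.43, q = 0.00214) in the authors' deposited table. ARSA, which removes sulfate from sulfatide (hg19 locus chr22:51063446-51066607), rose from 4.81 to 7.95 FPKM, 0.72 on the log2 scale (error 0.28, q = 0.00981) in the authors' deposited table. NEU1, the lysosomal sialidase (hg19 locus chr6:31825436-31830683), was the 1 member called lower, at 29.4 FPKM in the control and 19.5 with shRNA63, which is -0.59 on the log2 scale (error 0.26, q = 0.0379) in the authors' deposited table.

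With shRNA95 none of these 4 was called, and neither was any of the other 6 sphingolipid genes. PSAP stood at 214.4 and 272.4 FPKM in the shRNA95 table, SMPD1 at 2.58 and 3.28, ARSA at 4.67 and 4.90 and NEU1 at 28.5 and 23.3 FPKM. GLA, the alpha-galactosidase, was at 31.4 and 67.4 FPKM there, 1.10 on the log2 scale with a wide error of 0.66 (q = 0.440) in the authors' deposited table. Its locus holds 4 genes in the tables, the ribosomal protein gene RPL36A among them, so its value is uncertain. GLB1 had 177.4 and 271.5 FPKM with shRNA95 (q = 0.111) and 183.0 and 226.4 FPKM with shRNA63 (q = 0.743) in the authors' deposited tables. For HEXA, GM2A, ASAH1 and GALC, the log2 fold changes lay between -0.28 and 0.47 in the authors' deposited tables.

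Neither JMJD1C table called any of the 7 glycosaminoglycan-degrading genes or the 4 glycogen and glycoprotein genes. In the first group GUSB, the beta-glucuronidase often used as a reference gene, was the most abundant, at 75.1 and 91.1 FPKM with shRNA63 and 72.8 and 86.4 FPKM with shRNA95. The largest log2 fold change of the group was that of SGSH, a sulfamidase of heparan sulfate, at 7.47 and 13.2 FPKM with shRNA63 (log2 fold change 0.83, error 0.49, q = 0.175 in the authors' deposited table). IDUA, the iduronidase, had errors of 1.99 and 1.10 on the log2 scale, wider than those of the scarcer SMPD1 (0.43 and 0.42), and was not called; its locus holds 3 genes in the tables. Among glycogen and glycoprotein enzymes, the acid glucosidase GAA, 132.6 FPKM in the control and 139.9 with shRNA63, had a 95% interval of -0.53 to 0.68 on the log2 scale. MANBA, the beta-mannosidase, came nearest to a call, at 21.5 and 35.1 FPKM with shRNA95, a log2 fold change of 0.71 (error 0.33, q = 0.0709) in the authors' deposited table.

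In the group of 4 genes for progranulin and for enzymes that act on proteins, GRN was called with each hairpin. The enzyme genes TPP1, PPT1 and LGMN were called with neither. GRN (ENSG00000030582, hg19 locus chr17:42422614-42430470) encodes progranulin, a secreted protein that is cut into granulins in the lysosome. It rose with shRNA63, from 102.5 FPKM in the control to 219.7, and its log2 fold change was 1.10 (error 0.26, q = 0.00214) in the authors' deposited table. In the shRNA95 table it stood at 99.4 and 177.5 FPKM, 0.84 on the log2 scale (error 0.27, q = 0.00401) in the authors' deposited table. TPP1, a tripeptidyl peptidase, was at 40.4 and 64.2 FPKM with shRNA63 (q = 0.146) and at 39.1 and 54.6 FPKM with shRNA95 (q = 0.470) in the authors' deposited tables. PPT1 had 227.5 and 249.0 FPKM with shRNA63 and 220.5 and 333.8 FPKM with shRNA95, and was not called. ACP2, an acid phosphatase, had 35.0 and 32.1 FPKM, and 33.9 and 30.7 FPKM, with errors of 0.68 and 0.67 on the log2 scale.

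TFEB itself was scarce. Its log2 fold change was 0.33 (error 1.01) with shRNA63 and -1.23 (error 1.50, q = 0.154) with shRNA95 in the authors' deposited tables. The unadjusted Cuffdiff p with shRNA95 was 0.0111, where both group values lay under 1 FPKM. Neither a rise nor a fall of TFEB was called, and the errors do not resolve one. Of its relatives, TFE3 had 7.58 and 10.8 FPKM in the shRNA63 table and 7.35 and 7.45 FPKM in the shRNA95 table and was not called. MITF and TFEC stayed under 1 FPKM in every group.

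The difference between the hairpins was tested for each gene as the difference of the 2 log2 fold changes over their combined error, with Benjamini-Hochberg adjustment over 13870 genes. It passed for 1 of the 37 members tested, LAPTM5, against 1.08% of all genes, with 0.728% lower with shRNA63. LAPTM5 was lower with shRNA63 than with shRNA95 by -1.63 on the log2 scale (error 0.39, 95% interval -2.38 to -0.87, unadjusted p = 2.40e-05, adjusted p = 0.00411), by a normal approximation because group values allow no exact test. None of the other 36 tested members passed, which does not show that the hairpins acted alike. SMPD1 differed by 1.12 (95% interval -0.07 to 2.31), LAMP1 by -0.73 (-1.63 to 0.17), LAPTM4B by -0.70 (-1.66 to 0.27), ARSA by 0.65 (-0.15 to 1.46), PSAP by 0.59 (-0.16 to 1.35) and LAPTM4A by 0.56 (-0.47 to 1.59). NPC2 differed by 0.49 (-0.21 to 1.19) and GRN by 0.26 with an error of 0.37. Both log2 fold changes share the control libraries, so their errors were counted too wide here. With errors taken from the deposited p instead, LAPTM5 had an adjusted p of 0.644; its deposited p is 5.00e-05 in both tables, the smallest value listed, which widens those errors.

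**Figure D3:**
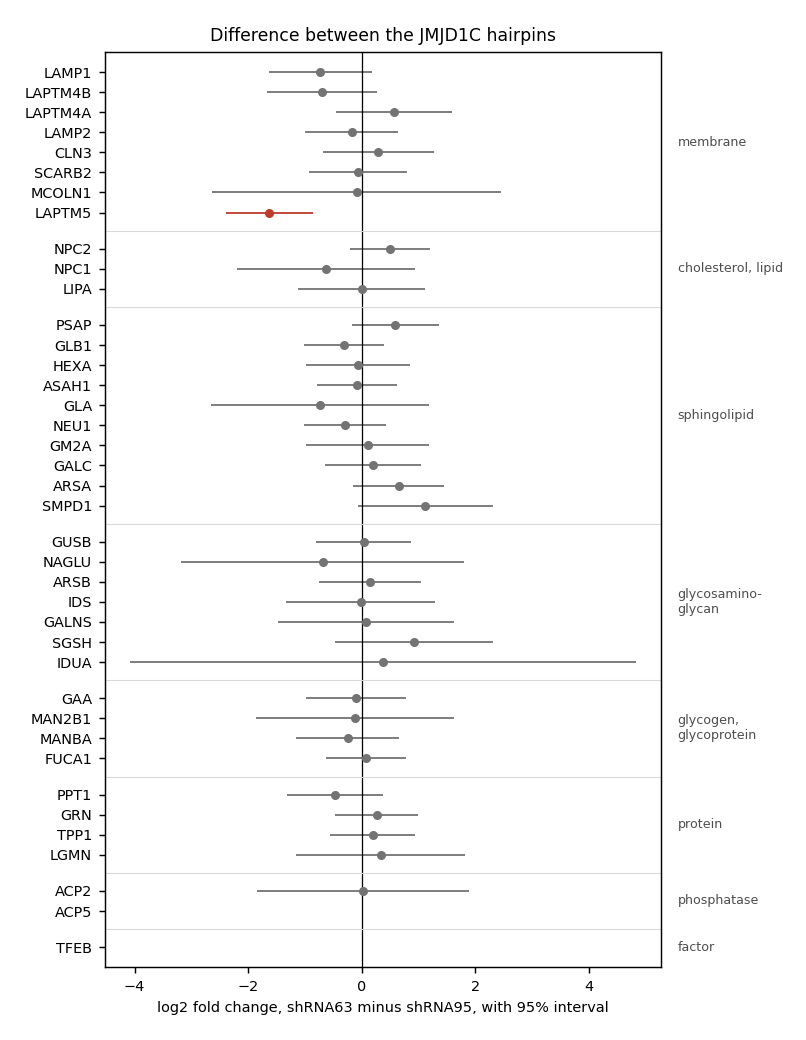
Difference of the authors' log2 fold changes, shRNA63 minus shRNA95, for 37 lysosomal genes by role, with 95% intervals. LAPTM5 (red, -1.63) is the 1 gene whose adjusted p is under 0.05; ACP5 and TFEB were not tested.

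With AML1-ETO knocked down, 1 of the 39 members, LAPTM5, was called higher in the authors' deposited table, in which 0.198% of 21727 tested genes were called higher and 0.175% lower. Among genes measured in both JMJD1C tables, the share called higher there was 0.169%. Its log2 fold change was 4.82 (error 0.56, q = 0.0178) in the authors' deposited table. Cuffdiff called 0 members lower there. At an unadjusted p under 0.05 LAPTM5 alone was higher and 0 members were lower, against 2.32% and 2.63% of all tested genes. The comparison rests on 1 library a side and compares those libraries, not the conditions, and RUNX1T1 had a log2 fold change of -1.04 (error 0.87) without a call in the authors' deposited table. The members' values lay mostly above 0: 34 of 39 were positive in the authors' deposited table, against 49.1% of all tested genes and 44.3% of those measured in both JMJD1C tables. Their median of 0.46 compares with -0.014 over all tested genes, and their median error was 0.64. The 95% interval excluded 0 for LAPTM5 alone.

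GLA (1.45, error 1.06), SMPD1 (1.36, error 0.86), ARSB (0.94, error 0.57), GM2A (0.89, error 0.61) and NPC2 (0.87, error 0.55) came next to LAPTM5 in the authors' deposited table, apart from ACP5 and IDUA with their wider errors, and were not called. PSAP had 0.78 (error 0.45) and GRN 0.62 (error 0.53), and the relatives of LAPTM5 had -0.02 (LAPTM4A) and -0.36 (LAPTM4B) in the authors' deposited table. ACP5 was given 2.05 there, with an error of 17.3, so no direction can be read from it. Across members, which are not independent replicates, the log2 fold changes of shRNA63 and of the AML1-ETO knockdown had a Pearson correlation of 0.53 over 38 members and 0.41 without LAPTM5, against 0.34 over 13892 genes. For shRNA95 it was 0.75 over 37 members and 0.28 without LAPTM5, against 0.45 over 13806 genes, so the value for shRNA95 rests on LAPTM5.

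Beyond the members, 6 related lists were examined. Their calls are to be read beside the 5.74% of all measured genes called with shRNA63 and the 5.04% called with shRNA95 in the authors' deposited tables. With the AML1-ETO knockdown 0.198% of tested genes were called higher and 0.175% lower. Of 17 V-ATPase subunits, which pump protons into the lysosome, 16 were measured. ATP6V0B, ATP6V0C, ATP6V0E1 and ATP6AP1 were called higher and ATP6V1A lower with shRNA95, and ATP6V1H lower with shRNA63, in the authors' deposited tables. ATP6V0C, part of the membrane ring, stood at 131.1 and 275.9 FPKM with shRNA95, a log2 fold change of 1.07 (error 0.36, q = 0.00216), and at 135.1 and 202.9 FPKM with shRNA63, 0.59 (q = 0.235), in the authors' deposited tables. ATP6V1H fell from 53.2 to 20.6 FPKM with shRNA63, -1.37 on the log2 scale (error 0.26), and stood at 51.5 and 47.3 FPKM in the shRNA95 table, -0.12, in the authors' deposited tables. The list medians were 0.17 and 0.27.

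Of 21 further lysosomal hydrolases 19 were measured, with 1 called higher and 2 lower with shRNA63 and 5 higher and 1 lower with shRNA95 in the authors' deposited tables. RNASET2, a ribonuclease, was at 117.3 and 209.5 FPKM with shRNA63 (q = 0.00554) and 113.7 and 200.7 FPKM with shRNA95 (q = 0.0133) in the authors' deposited tables. AGA, which splits asparagine from glycans, was called with shRNA95, at 17.7 and 41.1 FPKM, and so were DNASE2 and DPP7. The heparanase gene HPSE fell in all 3 tables: its log2 fold changes were -2.07, -1.65 and -4.24 with shRNA63, shRNA95 and the AML1-ETO knockdown in the authors' deposited tables, each called.

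None of 10 genes of mannose 6-phosphate tagging and sorting was called in any table; at an unadjusted p under 0.05 1 were higher and 1 lower with shRNA63, 0 and 0 with shRNA95, and 0 and 0 with the AML1-ETO knockdown in the authors' deposited tables. Of 18 genes for the TFEB family and the mTORC1 machinery on the lysosome, 16 were measured, and LAMTOR2, a scaffold subunit, was called higher with shRNA95 and RPTOR, the adaptor of mTORC1, lower with shRNA63 in the authors' deposited tables. Of 13 other membrane proteins, CD63 was called with shRNA95, at 266.9 and 422.1 FPKM, and LAMP3 with shRNA63, at 0.664 and 1.55 FPKM. Among 14 autophagy genes GABARAPL1, which encodes an ATG8 family protein, rose with shRNA63 from 1.69 to 4.60 FPKM, 1.45 on the log2 scale (error 0.36, q = 0.00214) in the authors' deposited table. None of these 4 lists had more than 1 call with a hairpin, near the share over all measured genes. The medians of these 4 lists lay between -0.06 and 0.28 with shRNA63 and between 0.06 and 0.14 with shRNA95.

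**Figure D4:**
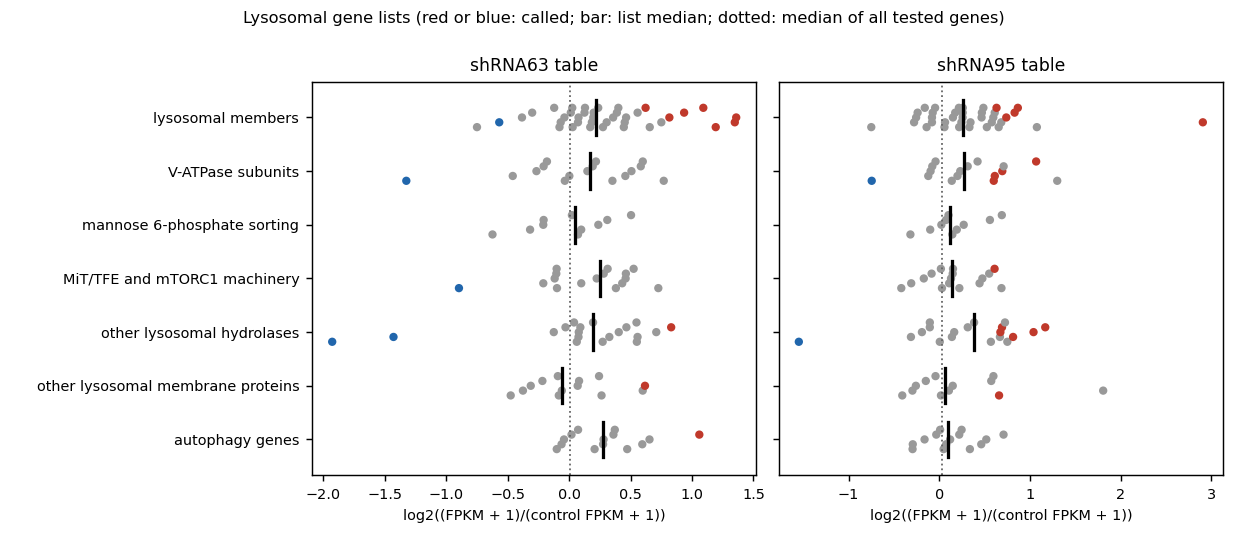
Each measured gene of the lysosomal members and of 6 related lists (points) by its log2((FPKM + 1)/(control FPKM + 1)) in the shRNA63 and shRNA95 tables; red points were called higher and blue points lower, bars are list medians and the dotted line is the median of all measured genes. The members' medians of 0.22 and 0.26 lie to the right of the dotted line, and the lowest point with shRNA63 is HPSE.

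The promoters of the members were searched for CACGTG, an E-box of the TFEB family, since it is a sequence feature known to be shared by lysosomal genes. RefSeq promoter windows (GRCh38.p14, from 250 bases before to 50 after the start) were at hand for 29 members, in 44 windows. The motifs were CACGTG, TCACGTGA, and TCACGTGA with G before it and C after it. They read the same on both strands, and each longer one contains the shorter. CACGTG occurred in a window of 8 of the 29 members, or 27.6%, against 8.77% of all 27305 genes with a window and 13% of the genes measured with shRNA63. The 8-base form TCACGTGA occurred in 5 members, or 17.2%, against 1.18% and 2.43%. The 10-base form occurred in 3 members, MCOLN1, GAA and GALNS, or 10.3%, against 0.421% and 0.998%. A match is a description of the letters and not of binding. The motif was chosen as one known from lysosomal genes, so its higher share among them is not a result of these data.

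Stretches of 7 promoters that hold matches upstream of the start are printed 5′ to 3′ in the direction of the gene, with each CACGTG in capitals, because they show how the copies are spaced.
LAMP1 (chr13:113297035-113297228, plus strand): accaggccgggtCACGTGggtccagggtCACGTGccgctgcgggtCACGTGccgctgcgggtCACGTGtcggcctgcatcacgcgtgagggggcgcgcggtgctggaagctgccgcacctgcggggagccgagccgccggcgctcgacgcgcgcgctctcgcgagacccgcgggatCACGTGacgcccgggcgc
MCOLN1 (chr19:7522571-7522623, plus strand): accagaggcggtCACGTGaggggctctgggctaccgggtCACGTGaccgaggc
GAA (chr17:80101493-80101567, plus strand): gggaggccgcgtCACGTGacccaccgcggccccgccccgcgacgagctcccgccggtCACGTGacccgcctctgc
GALNS (chr16:88856962-88857133, minus strand): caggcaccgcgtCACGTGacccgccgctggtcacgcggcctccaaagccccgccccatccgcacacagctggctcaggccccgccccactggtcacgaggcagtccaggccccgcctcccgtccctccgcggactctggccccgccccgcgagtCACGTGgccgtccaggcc
CLN3 (chr16:28492087-28492116, minus strand): aaaacctctgagCACGTGatgggggaacac
NEU1 (chr6:31862930-31862959, minus strand): atgctgcgtgatCACGTGggaggagatgag
ARSB (chr5:78986101-78986130, minus strand): taattcaataagCACGTGactaaaggattt
LAMP1 has 6 copies in its window, at -192, -176, -159, -142, -28 and -1 from the start, of which the stretch shows 5. CLN3 has 2, at -30 and -1 from the start of that window, of which the stretch shows the first; the copy at -1 lies within the 8-base form. MCOLN1 has them at -41 and -14 and GAA at -76 and -31, so in both genes a pair lies close to the start. ACP5, listed at 0 FPKM, has 1 copy at -181 in 1 of its 4 windows, which is not printed.

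**Figure D5:**
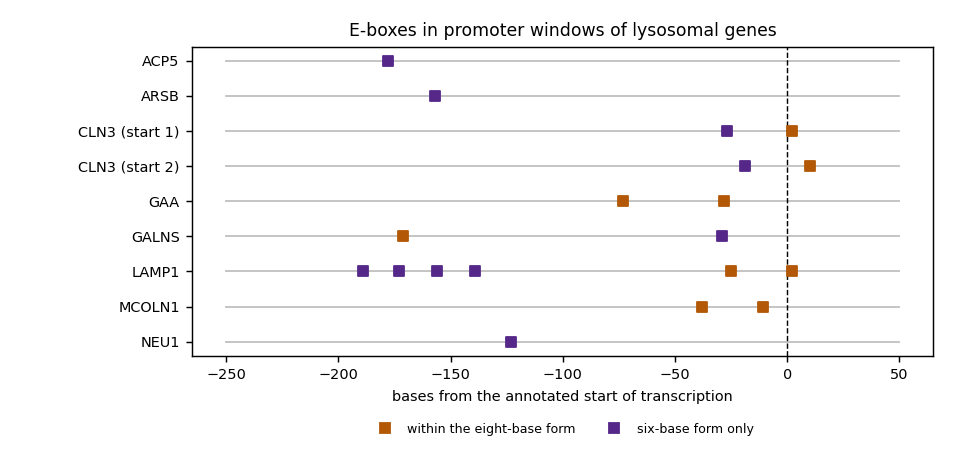
Positions of CACGTG in the promoter windows that hold it (9 windows of 8 genes), in bases from the annotated start (dashed line). Grey lines span each window and orange squares lie within the 8-base form. The row of LAMP1 has 6 squares, the most of any gene here.

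Among the 29 members with a window, the highest log2 fold change with each hairpin was that of a member without CACGTG, LAPTM5. Whether the motif goes with the changes was not tested. The other 10 members had no window and could not be searched. Among these were PSAP and ARSA, called higher with shRNA63, and LAMP2, called higher with shRNA95. Of the 8, 7 were measured, and they had a median log2 fold change of 0.08 with shRNA63 and 0.18 with shRNA95 in the authors' deposited tables. The 21 members with a window but no CACGTG had medians of 0.28 and 0.25 in the authors' deposited tables, over 21 and 20 measured genes. Beside these medians, the median error of a measured member was 0.33 with each hairpin. Among the 7 with the motif, NEU1 was called lower with shRNA63 and LAMP1 higher with shRNA95. For LAPTM5, NPC2 and GRN, the members called higher with each hairpin, no CACGTG was found in any window, and the 250 bases before the start are shown for comparison.
LAPTM5 (chr1:30757775-30758024, minus strand): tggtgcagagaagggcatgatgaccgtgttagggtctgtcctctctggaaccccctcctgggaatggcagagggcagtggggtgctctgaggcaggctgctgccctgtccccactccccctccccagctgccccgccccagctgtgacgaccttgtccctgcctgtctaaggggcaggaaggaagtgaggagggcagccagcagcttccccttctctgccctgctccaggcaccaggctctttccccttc
NPC2 (chr14:74493513-74493762, minus strand): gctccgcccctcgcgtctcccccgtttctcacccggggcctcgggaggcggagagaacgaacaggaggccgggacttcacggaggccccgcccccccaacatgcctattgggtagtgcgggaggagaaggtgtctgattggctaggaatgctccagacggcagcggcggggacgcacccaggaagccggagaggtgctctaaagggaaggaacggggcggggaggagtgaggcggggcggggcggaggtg
GRN (chr17:44345052-44345301, plus strand): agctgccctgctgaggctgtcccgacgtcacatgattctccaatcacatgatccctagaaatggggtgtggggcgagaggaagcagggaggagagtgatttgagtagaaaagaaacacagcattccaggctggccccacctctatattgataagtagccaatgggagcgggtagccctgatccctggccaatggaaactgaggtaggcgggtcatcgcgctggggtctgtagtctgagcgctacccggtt
That no match was found says only that these letters are absent from the windows searched. Related letters were not searched, such as the tcacatga that the GRN stretch holds.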

How the data were processed

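RNA from 6 Kasumi-1 libraries in 3 groups had been sequenced, and groups were taken from the sample titles. The submitters' processing notes name TopHat2 2.0.8b, Cuffdiff 2.1.1 and the build hg19, with no role or order. Per the file headers, the authors deposited 3 tables of gene comparisons, with 1 FPKM value per group in each JMJD1C table, a log2 fold change, a test statistic that is a score without fixed range, and p-values with q-values. The authors combined the 2 libraries of a group and scaled each table by itself: control FPKM were 1.03 times higher in the shRNA63 table at the median. The 2 FPKM columns of the AML1-ETO table belong to another series and were not used, so members there were taken by the authors' own filter for testing in place of 1 FPKM.

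Calls are the authors' q-value under 0.05, as deposited. No file gives reads per library, so depth is unknown. Untested genes most often had a log2 fold change of 0.34 (shRNA63) and 0.50 (shRNA95); if such genes had equal reads, the shRNA groups had 0.79 and 0.71 times the depth of the controls. The deposited p-values of the JMJD1C tables are smaller than the statistic gives (the normal deviate of p was 1.42 times it at the median). The difference between hairpins used normal p-values, since group values allow no exact test, with errors below the 10th percentile raised to it. The 39 members fill 49 rows; the 10 rows of other gene IDs held under 1 FPKM and were left out. Locus positions are the authors' hg19 values, and 24 members share a locus with another gene. The strandedness of the libraries was not stated in the sources used, so overlapping genes are uncertain. All members were accounted for; those called in a table, the LAPTM family and TFEB were given in full, and others as the most abundant of their role. LIPA, SGSH, IDUA, MANBA, TPP1, GLA, TFE3 and the members listed for AML1-ETO and for the hairpin difference were named after their values were seen. Members, lists and motifs were chosen with earlier results of these data known. The lists were the 6 related lysosomal lists and markers of myeloblasts, monocytes and macrophages, neutrophil granules, mast cells, erythroid and lymphoid cells; of the mast cell markers TPSAB1 and TPSB2 were called lower with each hairpin. Results of some genes of the related lists are not reported here. Python 3.11.15, pandas 2.3.3 and scipy 1.17.1 were used.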

Additional observations from a re-analysis of the deposited data

Results flagged for a closer look

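LAPTM5 differed between the hairpins by the test of the difference itself, with a log2 fold change lower by -1.63 with shRNA63 than with shRNA95 (error 0.39, adjusted p = 0.00411 by a normal approximation, as group values allow no exact test). Its group values were 4.36 FPKM in the control and 12.8 with shRNA63 in one table, and 4.23 and 38.2 in the other. Of the 5 measured monocyte and macrophage markers, LYZ, MNDA, CTSS and FCGR1A had a higher log2 fold change with shRNA95 and TLR2 a higher one with shRNA63 in the authors' deposited tables. With shRNA63 and shRNA95, LYZ had 3.02 and 3.32 (errors 0.29 and 0.28) and MNDA 2.42 and 2.66 (errors 0.30 and 0.31). CTSS had 2.25 and 2.51 (error 0.39 in both), so the errors do not resolve the order of these genes. FCGR1A had 0.72 and 1.85 (errors 0.44 and 0.34) and TLR2 1.75 and 1.32 (error 0.23 in both). PTPRC, a leukocyte gene, had 1.62 with shRNA63 and 2.62 with shRNA95, while CD33 had 0.83 and 0.23, in the authors' deposited tables. The neutrophil granule markers did not all have their higher value with the same hairpin. ELANE (1.71 with shRNA63 and 0.02 with shRNA95), AZU1, PRTN3 and CTSG had higher values with shRNA63. BPI (0.72 and 3.72), S100A9 (0.46 and 2.27) and S100A8 had higher values with shRNA95 in the authors' deposited tables. With shRNA63 and shRNA95, AZU1 had 1.32 and 0.76 (errors 0.26 and 0.28) and PRTN3 1.26 and 0.59 (errors 0.26 and 0.29). CTSG had 0.84 and 0.60 (error 0.25 in both) and S100A8 3.62 and 9.33 (errors 2.19 and 2.24). The errors do not resolve the order of AZU1, PRTN3, CTSG or S100A8. These genes were named after their values were seen, and their part in the difference of LAPTM5 was not tested.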

How the results depend on the processing

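Each alternative changed 1 choice. The members' medians kept their sign under the alternatives run. With other pseudocounts (0.1 and 5), FPKM minimums (none and 5) and centring on all genes they ran from 0.19 to 0.29 with shRNA63 and from 0.23 to 0.34 with shRNA95. For the AML1-ETO knockdown, where only centring and members measured in both JMJD1C tables were tried, they ran from 0.46 to 0.48. At q under 0.01, 0 members were called lower with shRNA63 in place of 1, and 2 higher with shRNA95 in place of 5. With the AML1-ETO knockdown 0 were called in place of 1, which was fixed in advance. LAPTM5 there has the smallest Cuffdiff p listed, 5.00e-05, and its q is 0.0178, so no gene could pass. At q under 0.10, 2 were called lower with shRNA63, LIPA and NEU1. With p from the authors' statistic, 0 were called lower with shRNA63 and 3 higher with shRNA95 (LAPTM5, NPC2 and GRN). The 7 calls higher with shRNA63 became 5 under that reading. Adjusting over genes of at least 5 FPKM kept all 13 calls of the JMJD1C tables. With errors from the deposited p, 0 members differed between the hairpins in place of 1; LAPTM5 remained under the other 3 settings of that test, with an adjusted p of 3.98e-07 to 0.00360. The median error of 0.33 for members limits what could be called. No replicate could be left out, and no paired analysis was possible because the tables hold 1 combined value per group.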
